A study of Rattus norvegicus with 12 samples.

Results

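The genes described here were 10 genes of the cardiac contractile apparatus, some of whose protein isoforms separate fetal from mature myocardium: the myosin heavy chains Myh6, Myh7 and Myh7b, the sarcomeric actins Acta1 and Actc1, the troponin subunits Tnni1, Tnni3, Tnnt2 and Tnnc1, and the tropomyosin Tpm1. They were chosen by name, and with earlier results of these data known, from a table of 32545 genes, with 3 isoform ratios (Myh7/Myh6, Tnni1/Tnni3 and Acta1/Actc1). All 10 were above the filter on low values. The table came from neonatal Sprague-Dawley rats that underwent surgery on postnatal day 1 (P1). In the volume overload (VO) groups a needle puncture joined the abdominal aorta to the inferior vena cava, and in the sham groups the animals were operated on without a fistula. The free walls of the left ventricle (LV) and the right ventricle (RV) were taken at P7, giving 4 groups of 3 libraries, namely LV and RV after sham surgery and LV and RV after VO. The design asks how the LV and the RV differ at this age and whether they respond to VO alike. All animals carried the same strain background and no transgene was named. The sources used here do not say whether each library came from 1 animal, whether animals were pooled, or whether an LV and an RV library came from the same animal, so p-values measure only the spread between libraries, part of which may be technical.

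The heart builds its sarcomeres from paralogous genes whose use shifts around birth. In rodent ventricles the slow beta myosin heavy chain (Myh7) and slow skeletal troponin I (Tnni1) are fetal forms, which alpha myosin heavy chain (Myh6) and cardiac troponin I (Tnni3) replace as the heart matures, while skeletal alpha-actin (Acta1) accompanies cardiac alpha-actin (Actc1) before and shortly after birth. Renewed use of Myh7 and Acta1 in an older heart is a widely used sign of haemodynamic load.

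Expression was measured by RNA-seq of bulk tissue as fragments per kilobase of transcript and sequencing depth (FPKM), a scale on which levels can be compared between genes. In bulk tissue, fewer cells of a type and less RNA per cell cannot be told apart. The reads recovered from the FPKM values numbered 14121713 to 16871371 per library, and the 10 genes took 4.25% to 6.07% of them. Each gene therefore rested on many reads, from 2146 to 9335 per library for the lowest gene, Myh7b, to 142482 to 286692 for Myh6, and the spread between libraries rather than counting error set the precision.

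The tissue label was held against defining markers. Of 10 cardiomyocyte markers, 9 were read in every group and Tcap was listed at 0 in all 12 libraries. Their summed level was 11531 to 14602 FPKM in 11 libraries and 9009 FPKM in VO RV replicate 2. The 8 listed skeletal muscle markers of 10 summed to 4.45 to 9.27 FPKM, so the defining markers of skeletal muscle, which also expresses Acta1, Tnni1, Myh7 and Tnnc1, were near 0. The 9 atrial cardiomyocyte markers summed to 772 to 1233 FPKM in sham LV, 310 to 1171 FPKM in sham RV, 967 to 1810 FPKM in VO LV, with 334 to 4691 FPKM in VO RV. Replicate 1 held the highest sham RV value and replicate 2 the highest VO RV value, the former within the range of the LV groups, and the calls, the ratio tests that passed and the list counts are given with and without these 2 libraries. VO RV replicate 2 also had the highest sum of the 8 fibroblast markers, 4935 FPKM against 2063 to 3640 FPKM elsewhere. The 5 listed endothelial markers of 6 summed to 348 to 375 FPKM in sham LV, above sham RV (256 to 279 FPKM), VO LV (294 to 323 FPKM) and VO RV (253 to 312 FPKM), with no overlap. The 8 macrophage markers summed to 112 to 126 FPKM in sham LV and 83.5 to 95.9 FPKM in sham RV, without overlap, and to 86.4 to 114 FPKM in VO LV and 88.8 to 133 FPKM in VO RV. The 7 smooth muscle markers summed to 694 to 852 FPKM in sham LV and 870 to 912 FPKM in VO LV, and the fibroblast markers to 2594 to 2789 FPKM in sham LV and 2063 to 2543 FPKM in VO LV, both without overlap. The endothelial and macrophage sums moved with the sham LV values of Myh6, Myh7, Myh7b, Tnni3 and Tnnt2, and the endothelial, smooth muscle and fibroblast sums with the difference of VO LV from sham LV in Myh6, Myh7, Actc1, Tpm1, Myh7b, Tnni3 and Tnnt2. Their part in those values was not tested. Y-linked genes summed to over 10 FPKM in 5 of the 12 libraries, both sham groups having 2, VO RV 1 and VO LV none. They summed to at most 0.0343 FPKM elsewhere, so the animals' sexes were unevenly spread over the groups. For VO replicate 3 the sum was 56.0 FPKM in the RV and 0 in the LV, so these 2 libraries were not from the same animal. The other same-numbered LV and RV libraries were alike in this.

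Differences were tested with limma on log2 FPKM over all 13910 genes above the filter, with p-values adjusted over all of them by the Benjamini-Hochberg method. A gene was called when the adjusted p was under 0.05 and the fold change over 1.3. Of the 10 genes, none was called between sham LV and sham RV (all genes 3.85%), between VO LV and sham LV (0.0935%), between VO RV and sham RV (0%) or between VO LV and VO RV (0.00719%). In the test of whether the 2 ventricles responded to VO differently, which sets the LV change against the RV change, 2 of the 10 were called (4.19% of all genes), namely Myh6 and Myh7. By an unadjusted p under 0.05 with the same fold limit, 4, 4, 1 and 3 of the 10 passed in the 4 comparisons in that order, against 17.8%, 15.7%, 4.91% and 7.4% of all genes, and 2 of 10 against 23.1% in the test of the responses.

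Complete separation of the 3 libraries of one group from the 3 of the other was more frequent. Between sham LV and sham RV 5 of the 10 genes did not overlap (all genes 32.2%), with Myh7b, Tnni3 and Tnnt2 higher and Myh6 and Myh7 lower in the LV. Between VO LV and sham LV 7 of the 10 did not overlap (32.4%): Myh6, Myh7, Actc1 and Tpm1 were higher and Myh7b, Tnni3 and Tnnt2 lower in VO LV. Between VO RV and sham RV 2 of the 10 did not overlap (12.5%), Myh6 and Myh7, both lower in VO RV. Between VO LV and VO RV 4 of the 10 did not overlap (16.1%), Myh6, Myh7, Acta1 and Actc1, all higher in VO LV. The median log2 difference of the 10 genes stayed near that of all genes in each comparison, at 0.10 against 0.01, 0.02 against -0.02, -0.01 against 0.00, 0.07 against 0.01 and, for the responses, 0.01 against -0.04. Of the 10 genes, 6, 5, 5, 8 and 5 had a positive log2 difference in these comparisons.

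**Figure D1:**
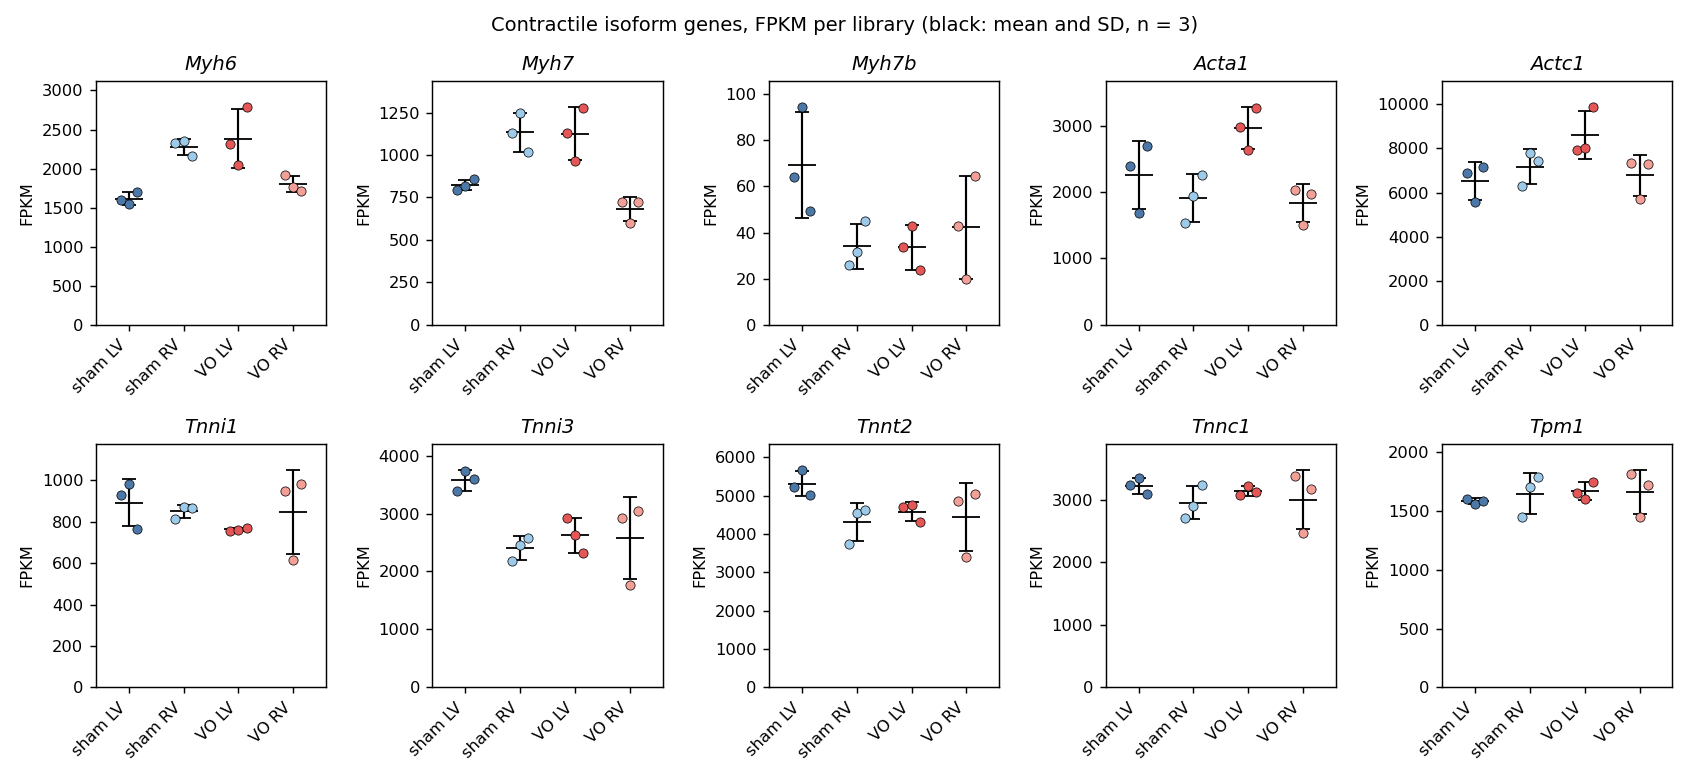
FPKM (y axis, linear, from 0) of each of the 10 genes in the 12 libraries, by group (x axis). Points are libraries and the black marks are the mean and SD of 3 libraries. Myh6 and Myh7 are low in sham LV and VO RV and high in sham RV and VO LV, while Tnnc1 and Tpm1 are at nearly one level in all groups.

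The myosin heavy chains are the motor proteins of the thick filament. Myh6 encodes the fast alpha chain of mature rodent ventricle. The table lists it as ENSRNOG00000025757 on chromosome 15, 33605654 to 33629699, minus strand, in a genome build that the sources used here do not name. Myh6 was at 1592, 1544 and 1706 FPKM in the 3 sham LV libraries, at 2323, 2355 and 2165 FPKM in sham RV, at 2311, 2041 and 2787 FPKM in VO LV, and at 1916, 1762 and 1718 FPKM in VO RV. Every sham LV library was below every library of the other 3 groups, and every VO RV library was below every library of sham RV and VO LV.

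Myh6 averaged 1614 ± 83.5 FPKM in sham LV against 2281 ± 102 FPKM in sham RV (SD, n = 3 each), a log2 difference of -0.50 (SE 0.13, limma adjusted p = 0.0538). In VO LV it was 2380 ± 377 FPKM (SD, n = 3), a log2 difference from sham LV of 0.55 (SE 0.13, limma adjusted p = 0.0610). In VO RV it was 1799 ± 104 FPKM (SD, n = 3), a log2 difference from sham RV of -0.34 (SE 0.13, limma adjusted p = 0.560). No single comparison of Myh6 therefore passed the threshold. The LV and RV responses to VO had opposite signs and differed by 0.89 on the log2 scale (SE 0.18, limma adjusted p = 0.0319).

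Myh7 encodes the slow beta chain, the main ventricular form before birth in rodents. It lies beside Myh6 on chromosome 15 (ENSRNOG00000016983, 33634422 to 33656089, minus strand). Myh7 was at 796, 815 and 857 FPKM in sham LV, at 1132, 1251 and 1018 FPKM in sham RV, at 1131, 966 and 1280 FPKM in VO LV and at 725, 598 and 720 FPKM in VO RV. Sham RV and VO LV overlapped, and all 6 of their libraries were above all 6 libraries of sham LV and VO RV.

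Mean Myh7 levels were 823 ± 31.1 FPKM in sham LV, 1133 ± 116 FPKM in sham RV, 1126 ± 157 FPKM in VO LV, with 681 ± 71.7 FPKM in VO RV (SD, n = 3 each). Sham LV differed from sham RV by -0.46 on the log2 scale (SE 0.13, limma adjusted p = 0.0674). VO LV differed from sham LV by 0.45 (SE 0.13, limma adjusted p = 0.0888), and VO RV from sham RV by -0.73 (SE 0.13, limma adjusted p = 0.366). Between the VO ventricles the LV was 0.72 higher (SE 0.13, limma adjusted p = 0.203). The LV response minus the RV response was 1.18 (SE 0.18, limma adjusted p = 0.0249).

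Other processing moved the myosin comparisons across the threshold. By quantile normalization Myh6 and Myh7 passed between sham LV and sham RV (limma adjusted p = 0.0318 and 0.0331), as they did without VO RV replicate 2 (limma adjusted p = 0.0446 and 0.0491), and by limma voom on recovered reads Myh6 passed there and between VO LV and sham LV (adjusted p = 0.040 and 0.0424). Without sham RV replicate 1 and VO RV replicate 2, the difference of the responses was 1.09 for Myh7 and 0.87 for Myh6, with limma adjusted p = 0.0589 and 0.0757, so neither was called. With no filter on low values neither was called at the same differences (limma adjusted p = 0.0540 for Myh7 and 0.0967 for Myh6), and with a covariate for the Y-linked genes Myh7 was called at 1.21 (limma adjusted p = 0.0438) and Myh6 was not at 0.88 (limma adjusted p = 0.0585). Over the 12 fits that each lacked 1 library, the difference ranged from 1.08 to 1.28 for Myh7, with the call lost in 6 of them, those without sham LV replicate 1 or 2, sham RV replicate 1 or 2, or VO LV replicate 2 or 3. For Myh6 it ranged from 0.78 to 1.00, with the call lost in 8, the same 6 and those without VO LV replicate 1 or VO RV replicate 3. Long genes, both myosins among them, also read higher or lower as a class from library to library. The median log2 deviation of 1413 genes of at least 5000 bases minus that of 4228 genes under 1500 bases was -0.19 to -0.10 in sham LV, -0.03 to 0.23 in sham RV, -0.02 to 0.10 in VO LV and -0.13 to 0.15 in VO RV. With this trend removed from each library the difference of the responses was 1.04 for Myh7 (limma adjusted p = 0.0309) and 0.75 for Myh6 (limma adjusted p = 0.0426).

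The Myh7/Myh6 ratio compares 2 transcripts of nearly equal length. It was 0.50, 0.528 and 0.502 in sham LV, 0.487, 0.531 and 0.470 in sham RV, 0.489, 0.473 and 0.459 in VO LV and 0.378, 0.340 and 0.419 in VO RV. All VO libraries were below all sham libraries of the same ventricle, and VO RV was below every other group. The alpha chain was thus the larger transcript in all 12 libraries, with Myh7 holding 33.8% ± 0.681 of the summed level in sham LV and 27.4% ± 2.09 in VO RV (SD, n = 3 each).

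Over both ventricles the Myh7/Myh6 ratio was lower with VO than with sham by 0.25 on the log2 scale, or 0.841-fold (exact two-sided permutation test within ventricle, p = 0.005, the smallest that 400 arrangements allow, adjusted p = 0.045 over the 9 ratio tests). The log2 difference of VO from sham was -0.11 for LV libraries and -0.39 for RV libraries, each of which has an exact p = 0.10, the smallest that 3 against 3 libraries can give. The 2 responses differed by 0.29, which did not pass (exact permutation p = 0.11, adjusted p = 0.198). That test permutes LV and RV labels within treatment, so a constant difference between the ventricles widens its spread and makes it conservative. Within treatment the LV was above the RV by a mean of 0.18. The difference was 0.04 between the sham ventricles, which overlapped, and 0.33 between the VO ventricles, which did not. The mean missed the threshold after adjustment (exact permutation p = 0.025, adjusted p = 0.0563) but passed by quantile normalization (0.24, adjusted permutation p = 0.045) and without sham RV replicate 2 (0.21, adjusted permutation p = 0.0338). Without sham RV replicate 1 and VO RV replicate 2 the VO difference was -0.22 (exact permutation p = 0.0167, the smallest that 120 arrangements allow, adjusted p = 0.090).

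**Figure D2:**
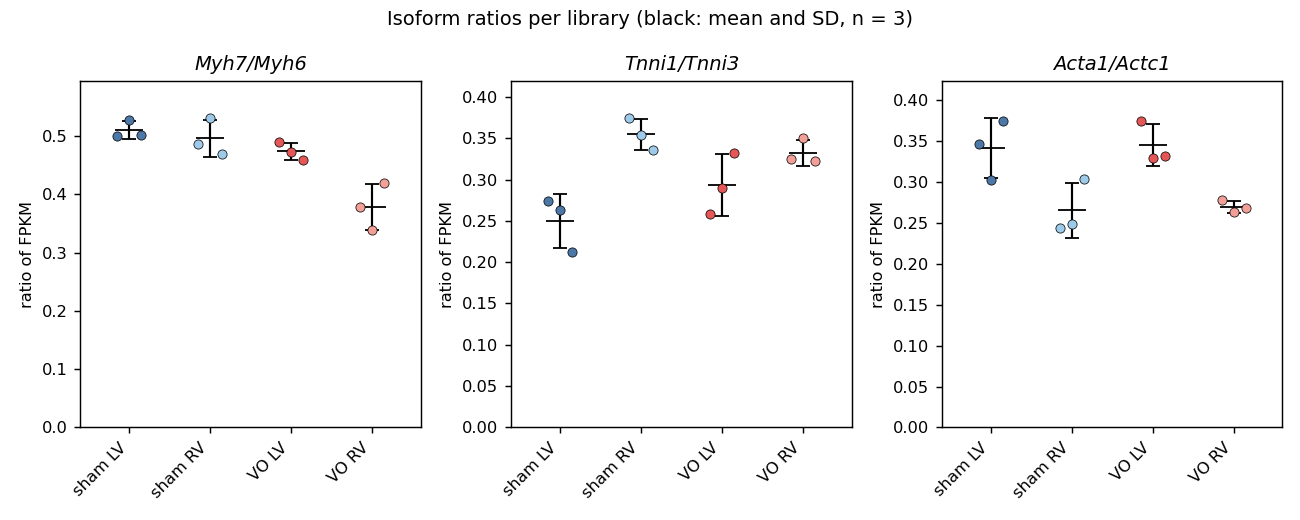
Ratio of FPKM values (y axis, linear, from 0) for Myh7/Myh6, Tnni1/Tnni3 and Acta1/Actc1 in each library, by group (x axis). Points are libraries and the black marks are the mean and SD of 3 libraries. Myh7/Myh6 is lowest in VO RV (0.379 ± 0.0398), Tnni1/Tnni3 is lowest in sham LV (0.25 ± 0.0327), and Acta1/Actc1 is higher in the LV groups (0.342 ± 0.0366 and 0.345 ± 0.0256) than in the RV groups (0.266 ± 0.0334 and 0.270 ± 0.00754).

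Myh7b encodes a slow-tonic myosin heavy chain that stays at a low level in the heart (ENSRNOG00000018997, chromosome 3, 151126591 to 151150344, plus strand). It was at 64.2, 94.4 and 49.5 FPKM in sham LV, at 25.9, 31.6 and 44.8 FPKM in sham RV, at 33.9, 43.0 and 23.8 FPKM in VO LV and at 42.7, 19.6 and 64.5 FPKM in VO RV. Sham LV was above sham RV and VO LV in every library, and VO RV spread across all of these ranges. The log2 difference was 1.00 between sham LV and sham RV (SE 0.39, limma adjusted p = 0.143) and -1.02 between VO LV and sham LV (SE 0.39, limma adjusted p = 0.156). Its direction was opposite to that of Myh6 and Myh7 in both comparisons. The difference of the responses was -1.21 (SE 0.56, limma adjusted p = 0.199), which passed without VO RV replicate 2 (-1.67, limma adjusted p = 0.0496) and ranged from -1.67 to -0.84 over the fits that lacked 1 library.

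Each of these 3 myosin genes carries a microRNA in an intron, a family known for coupling the myosin heavy chain genes to one another. The mature sequences are printed because the family shares its seed, bases 2 to 8, given in capitals. They are RefSeq sequences on build GRCr8, at chr15:32395568-32395585 in Myh6, chr15:32421648-32421665 in Myh7 (both minus strand) and chr3:164570616-164570636 in Myh7b (plus strand).
rno-miR-208a-3p: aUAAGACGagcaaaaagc
rno-miR-208b-3p: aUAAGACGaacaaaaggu
rno-miR-499-5p: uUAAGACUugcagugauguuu
The seeds of the first and the second were identical, and that of rno-miR-499-5p matched them at 6 of 7 bases. The table lists the precursor Mir208b (ENSRNOG00000041381, 112 bases, within Myh7) at 13.3 ± 3.04 FPKM in sham LV, 12.6 ± 2.05 FPKM in sham RV, 10.7 ± 1.47 FPKM in VO LV, with 15 ± 6.25 FPKM in VO RV (SD, n = 3 each). These rested on 16 to 33 reads per library and overlapped between all groups, unlike the Myh7 levels. Libraries were made from polyadenylated RNA, reads of host introns cannot be told apart from precursor reads, and mature miRNAs were not measured. Mir499 had 0 to 3 reads per library, and Mir208a was not analysed here.

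The actins form the backbone of the thin filament. Actc1, cardiac alpha-actin (ENSRNOG00000008536, chromosome 3, 105507403 to 105512939, minus strand), was the highest of the 10 genes. It was at 6904, 5559 and 7168 FPKM in sham LV, at 6296, 7814 and 7420 FPKM in sham RV, at 7942, 8005 and 9877 FPKM in VO LV and at 7335, 5709 and 7315 FPKM in VO RV. VO LV was above every library of the other 3 groups, which overlapped one another. Actc1 was 0.40 higher in VO LV than in sham LV on the log2 scale (SE 0.18, limma adjusted p = 0.214).

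Acta1, skeletal alpha-actin (ENSRNOG00000017786, chromosome 19, 56674074 to 56677084, minus strand), was at 2397, 1683 and 2690 FPKM in sham LV, at 1538, 1942 and 2257 FPKM in sham RV, at 2977, 2640 and 3273 FPKM in VO LV and at 2039, 1501 and 1966 FPKM in VO RV. VO LV was above VO RV in every library and overlapped sham LV. The log2 difference was 0.70 between VO LV and VO RV (SE 0.21, limma adjusted p = 0.281) and 0.42 between VO LV and sham LV (SE 0.21, limma adjusted p = 0.248), which was 0.22 without sham LV replicate 2 and 0.27 with the covariate for Y-linked genes. The fetal and load-associated actin therefore did not pass the test after VO in the LV, and in the RV its log2 difference was -0.05 (SE 0.21, limma adjusted p = 0.959).

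The Acta1/Actc1 ratio was 0.347, 0.303 and 0.375 in sham LV, 0.244, 0.249 and 0.304 in sham RV, 0.375, 0.330 and 0.331 in VO LV and 0.278, 0.263 and 0.269 in VO RV. The VO ventricles did not overlap, and the sham ventricles overlapped only between sham LV replicate 2 and sham RV replicate 3. Within treatment the ratio was higher in the LV than in the RV by 0.36 on the log2 scale, or 1.28-fold (exact permutation p = 0.01, adjusted p = 0.045). The VO and sham libraries of one ventricle did not differ beyond their spread, with a log2 difference of 0.02 (exact permutation p = 0.715, adjusted p = 0.804). Without sham RV replicate 1 and VO RV replicate 2 the LV and RV differed by 0.32 (exact permutation p = 0.02 over 100 arrangements, adjusted p = 0.090).

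The 250 bases before the start of Acta1 and of Actc1 are printed because the 2 actins varied together over the 12 libraries (Pearson r = 0.832, n = 12, as a description, since the libraries share depth and tissue). They are RefSeq promoter windows on build GRCr8, both on the minus strand, at chr19:68784195-68784444 for Acta1 and chr3:121271828-121272077 for Actc1.
Acta1: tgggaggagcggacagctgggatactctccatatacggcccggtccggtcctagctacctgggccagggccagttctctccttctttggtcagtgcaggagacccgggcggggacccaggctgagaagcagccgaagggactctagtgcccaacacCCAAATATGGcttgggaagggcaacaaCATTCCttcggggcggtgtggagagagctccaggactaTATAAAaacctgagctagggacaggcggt
Actc1: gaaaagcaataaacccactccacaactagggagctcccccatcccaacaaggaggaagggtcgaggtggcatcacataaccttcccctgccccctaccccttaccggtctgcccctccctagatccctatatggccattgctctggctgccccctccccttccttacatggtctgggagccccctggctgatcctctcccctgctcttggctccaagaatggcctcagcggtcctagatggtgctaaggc
Capitals mark 3 motifs that were searched on both strands: the CArG box, known as the site of serum response factor, MCAT (CATTCC), known as the site of TEAD factors, and TATAAA. The Acta1 window held all 3, with first bases 94, 67 and 29 bases before the listed start, and the Actc1 window held none of these letters. Of 33469 windows of the same length 1.5% held a CArG box, 12.1% MCAT and 12.9% TATAAA. A match is a description of letters, and binding was not measured.

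**Figure D3:**
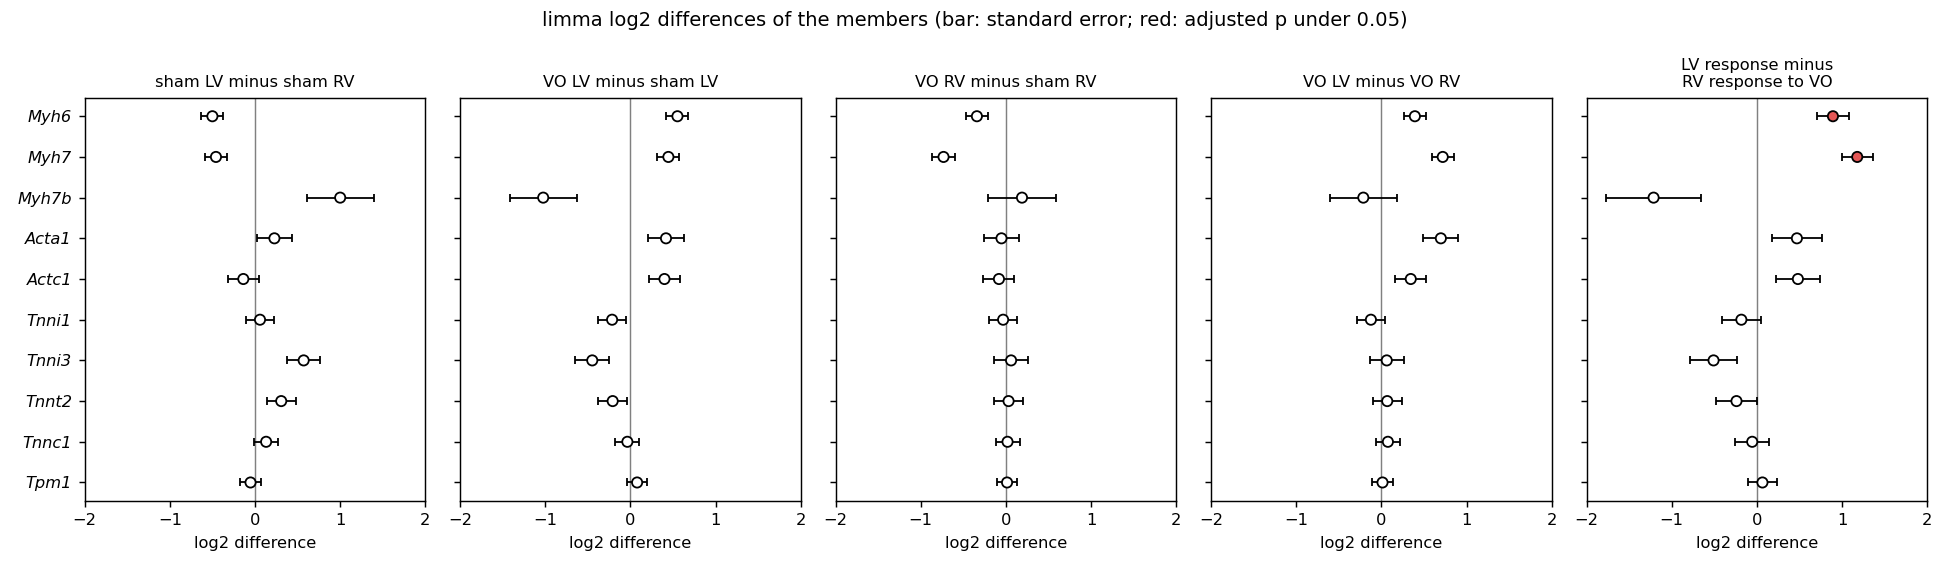
limma log2 differences (x axis) of the 10 genes (y axis) in the 4 comparisons between groups and in the test of the LV response minus the RV response. Bars are standard errors, and red points have an adjusted p under 0.05, which only Myh6 (0.89) and Myh7 (1.18) have, both in the test of the responses.

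The troponin complex makes the thin filament sensitive to calcium, and troponin I is its inhibitory subunit. Tnni3, the cardiac form of the mature heart (ENSRNOG00000018250, chromosome 1, 72882806 to 72886488, plus strand), was at 3384, 3740 and 3599 FPKM in sham LV, at 2177, 2464 and 2581 FPKM in sham RV, at 2927, 2628 and 2319 FPKM in VO LV and at 2923, 1759 and 3041 FPKM in VO RV. Sham LV was above all 9 other libraries. Sham LV exceeded sham RV by 0.57 on the log2 scale (SE 0.20, limma adjusted p = 0.104), a difference that passed without VO RV replicate 2 (limma adjusted p = 0.0328), and VO LV was at -0.45 from sham LV (SE 0.20, limma adjusted p = 0.20). Over the alternatives other than single left-out libraries these differences were 0.20 and -0.23 at their smallest.

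Tnni1, the slow skeletal form of the fetal heart (ENSRNOG00000009073, chromosome 13, 52624878 to 52637297, plus strand), was at 927, 982 and 765 FPKM in sham LV, at 815, 871 and 867 FPKM in sham RV, at 754, 762 and 771 FPKM in VO LV and at 948, 615 and 980 FPKM in VO RV. Its groups overlapped in all but the tight VO LV libraries, which lay below sham RV. Tnni1 was still read at a mean of 838 FPKM at P7, and no comparison of it reached an unadjusted p under 0.05. VO RV replicate 2 was the lowest of all libraries for 8 of the 10 genes, all but Myh6 and Actc1, as it was for the summed cardiomyocyte markers. Without it the difference of the responses was 1.09 for Myh7 (limma adjusted p = 0.0264) and 0.88 for Myh6 (limma adjusted p = 0.0338), and 2 more genes were called with the opposite sign, Tnni3 (-0.76, limma adjusted p = 0.0394) and Myh7b (-1.67, limma adjusted p = 0.0496). Over the whole table that fit called 926 of 13885 genes in this test, against 583 of 13910 in the main fit.

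The Tnni1/Tnni3 ratio was 0.274, 0.263 and 0.213 in sham LV, 0.374, 0.353 and 0.336 in sham RV, 0.258, 0.290 and 0.332 in VO LV and 0.324, 0.350 and 0.322 in VO RV. Sham LV had the lowest share of the fetal form and did not overlap sham RV, with a log2 difference of -0.51 (exact p = 0.10, the smallest possible). The VO ventricles overlapped, at a log2 difference of -0.19. Within treatment the LV was below the RV by 0.35 on the log2 scale (exact permutation p = 0.015, adjusted p = 0.045). The VO and sham libraries differed by 0.07 (exact permutation p = 0.525, adjusted p = 0.675), which ranged from 0.01 to 0.11 with single libraries left out. The LV and RV responses differed by 0.33 (exact permutation p = 0.265, adjusted p = 0.398), which was 0.15 by quantile normalization and 0.21 without sham LV replicate 3. Without sham RV replicate 1 and VO RV replicate 2 the LV and RV differed by -0.31 (exact permutation p = 0.05, adjusted p = 0.113), and leaving out VO LV replicate 1, VO LV replicate 2 or VO RV replicate 2 alone also raised the adjusted p above the threshold, to 0.060 to 0.075.

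Tnnt2, the cardiac troponin T that anchors the complex to tropomyosin (ENSRNOG00000033734, chromosome 13, 52662996 to 52680990, plus strand), was at 5307 ± 330 FPKM in sham LV, 4299 ± 496 FPKM in sham RV, 4583 ± 240 FPKM in VO LV, with 4429 ± 886 FPKM in VO RV (SD, n = 3 each). Sham LV was again above sham RV and VO LV in every library, at a log2 difference from sham RV of 0.31 (SE 0.17, limma adjusted p = 0.273). Over the alternatives other than single left-out libraries this difference was 0.04 at its smallest. The table gives 1 level per gene, so the fetal and adult splice forms of Tnnt2 could not be separated. Tnnt2 and Tnni1 lie near each other on chromosome 13.

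Tnnc1, the calcium-binding troponin C shared by slow skeletal and cardiac muscle (ENSRNOG00000018943, chromosome 16, 7292096 to 7295465, plus strand), ranged from 2470 to 3381 FPKM over the 12 libraries, a ratio of highest to lowest of 1.37. Tpm1, the alpha-tropomyosin that blocks or exposes myosin sites on actin (ENSRNOG00000018184, chromosome 8, 72814740 to 72842228, minus strand), ranged from 1448 to 1812 FPKM, a ratio of 1.25. These were the narrowest ranges of the 10 genes, and Myh7b had the widest, at 4.81. No comparison of Tnnc1 or Tpm1 passed the test.

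Ordered by mean FPKM over the 12 libraries, the genes stood at 7279 for Actc1, 4654 for Tnnt2, 3083 for Tnnc1, 2795 for Tnni3, 2242 for Acta1, 2018 for Myh6, 1640 for Tpm1, 941 for Myh7, 838 for Tnni1 and 44.8 for Myh7b. Actc1 ranked 9 among all genes of the table, and Myh7 and Tnni1 still ranked 65 and 80. The ranges of neighbours in this order separated in only 3 places, between Tnnt2 and Tnnc1, between Tpm1 and Myh7, and between Tnni1 and Myh7b. Acta1 was above Myh6 in 9 of 12 libraries, and Myh7 above Tnni1 in 7 of 12. Both pairs overlapped.

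Over the 12 libraries Myh6 and Myh7 varied together (Pearson r = 0.830), while Myh6 and Myh7b varied in opposite directions (Pearson r = -0.69), both as descriptions over n = 12 libraries that share group and depth. The genes most like Myh7, among 6065 genes with a mean of at least 10 FPKM, were Ipo13 (r = 0.920), Dgkd (r = 0.901) and Gal3st3 (r = 0.901). Those most like Myh6 were Micall1 (r = 0.958), Pak4 (r = 0.953) and Clpx (r = 0.953). Acta1 was most like Mrps18a (r = 0.912), Atp6v1d (r = 0.896) and Dnajc15 (r = 0.868), and Tnni1 most like Usp28 (r = 0.928), Hhatl (r = 0.917) and AC103090.1 (r = 0.904).

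Of 39 other genes of the sarcomere and of actin and myosin families, also chosen with earlier results of these data known, 27 were above the filter. Between sham LV and sham RV 3 of them were called (all genes 3.85%), Mylk3, a cardiac myosin light chain kinase (log2 difference -0.81), and Tnni3k, a kinase that binds troponin I (-0.77), lower in the LV, and Tpm2, beta-tropomyosin (0.70), higher. By quantile normalization 5 were called there, 1 higher and 4 lower in the LV, when 636 of 13910 genes of the whole table were. None of the 27 was called in the VO comparisons within a ventricle by limma, although voom on recovered reads called 2 in the LV, as did the fits without VO RV replicate 1 or 3. Over the whole table these fits called 339, 176 and 555 genes, against 13 of 13910 in the main fit. In the limma fit 7 of 27 in the LV (all genes 15.7%) and 4 in the RV (all genes 4.91%) reached an unadjusted p under 0.05 with the fold limit. Between VO LV and VO RV none was called either, except Myom2 without VO RV replicate 1 (limma adjusted p = 0.0294), and the smallest p-values belonged to Myom2 (0.65), Tnnt1, slow skeletal troponin T (1.60), and Myom1 (0.33). In the test of the responses 4 were called (all genes 4.19%), all more positive in the LV: Mylk3 (1.09), Tnni3k (1.03) and the M-band proteins Myom2 (1.02) and Myom1 (0.68). At an unadjusted p under 0.05 with the fold limit, 15 of 27 passed there (all genes 23.1%), 8 more positive and 7 more negative in the LV. The 4 calls became 2 with the gene-length trend removed or the block, 1 with the covariate for Y-linked genes and 0 with no filter. Calls more negative in the LV came with single libraries left out, 3 of 7 without sham LV replicate 3 and 3 of 8 without VO RV replicate 1. The list's median log2 difference there was 0.05 against -0.04 for all genes. With single libraries left out these counts ranged from 0 to 4 between the sham ventricles and from 0 to 8 for the responses. They were 0 in both without sham LV replicate 1 or 2, sham RV replicate 1 or 2, or VO LV replicate 2, and also 0 between the sham ventricles without sham RV replicate 3 or without both sham RV replicate 1 and VO RV replicate 2, and for the responses without VO LV replicate 3.

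A list of 44 regulators known to act on contractile isoform genes was chosen with earlier results of these data known. Its counts beside those of all genes are therefore a description only. Of the 44, 37 were above the filter. Between sham LV and sham RV 6 were called (all genes 3.85%), 1 higher and 5 lower in the LV. This count ranged from 0 to 10 with single libraries left out, and was 0 without sham LV replicate 1 or 2, sham RV replicate 1 or 2, or VO LV replicate 2, and 0 without both sham RV replicate 1 and VO RV replicate 2. It was 2 with the replicate block and 0 with no filter on low values. Hand1, a LV-restricted transcription factor of the developing heart, was higher by 1.04 on the log2 scale, and among those lower were Myocd, the SRF coactivator myocardin (-0.85), Celf1, a splicing factor of immature muscle (-0.84), Gata4, a cardiac transcription factor (-0.77), and Srf, serum response factor itself (-0.73). Within a ventricle limma called none of them after VO, a count that depended on the fit in the LV: voom on recovered reads called 7, and fits without sham LV replicate 3, VO RV replicate 1 or VO RV replicate 3 called 4, 2 and 9, all higher in VO. Over the whole table these fits called 339, 305, 176 and 555 genes in that order, against 13 of 13910 in the main fit. In the RV every alternative called 0 of the regulators. At an unadjusted p under 0.05 with the fold limit, 18 of 37 passed in the LV (all genes 15.7%), 16 of them higher in VO, led by Srf (0.69), Rbm20 (0.56) and Gata4 (0.74), and 8 in the RV (all genes 4.91%), all lower in VO, led by Hand1 (-0.89, but -1.56 by voom), Myocd (-0.61) and Celf1 (-0.57). Between VO LV and VO RV Hand1 was the single gene called of the whole table, at 2.64 (limma adjusted p = 0.000171).

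In the test of the responses 11 of the 37 regulators, a list chosen with earlier results of these data known, were called (all genes 4.19%), all more positive in the LV. The count was 5 with the gene-length trend removed, 4 with the covariate for Y-linked genes, 6 with the replicate block and 0 with no filter. Calls over the whole table leaned the same way, with 481 of 583 more positive in the LV, Myh6 and Myh7 among them. The regulators called included Hand1 (1.60), Celf1 (1.44), Myocd (1.38), Srf (0.93) and Rbm20, a splicing factor of sarcomere transcripts (0.84). Their list's median log2 difference was 0.53 against -0.04 for all genes. Without sham RV replicate 1 and VO RV replicate 2, none of the regulators and none of the other sarcomere genes was called, when 2 genes of the whole table were. The regulator count ranged from 0 to 15 with single libraries left out, and was 0 without sham LV replicate 1 or 2, sham RV replicate 1 or 2, or VO LV replicate 2 or 3. Levels of proteins and activity of the factors were not measured.

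**Figure D4:**
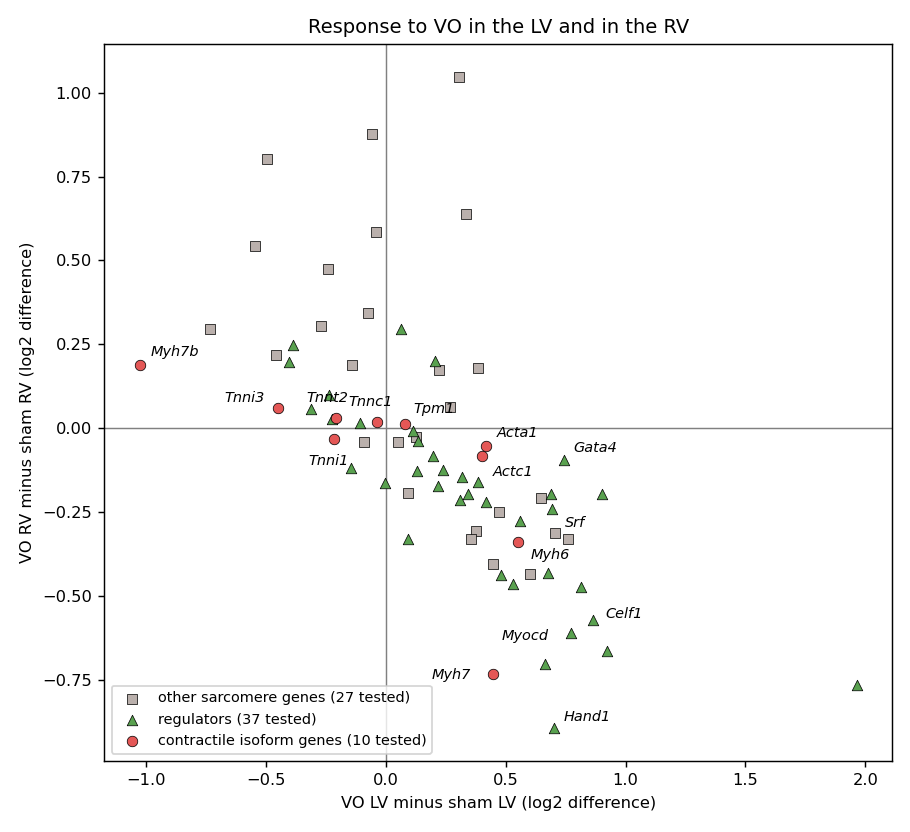
Log2 difference of VO LV minus sham LV (x axis) against VO RV minus sham RV (y axis) for the 10 contractile isoform genes (red circles), 27 other sarcomere genes (grey squares) and 37 regulators (green triangles). Each point is 1 gene from the limma model, and the lower right quadrant, with a positive LV and a negative RV difference, holds Myh6 (0.55 and -0.34), Myh7 (0.45 and -0.73), Acta1 (0.42 and -0.05) and Actc1 (0.40 and -0.08) with the labelled regulators and other genes of both lists.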

How the data were processed

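Polyadenylated RNA of LV and RV free walls was made into libraries with a NEBNext Ultra kit, and the authors aligned reads with HISAT2 2.0.5, counted them with featureCounts 1.5.0-p3 and deposited FPKM values per gene. The genome build and the strand setting are not given in the sources used here. FPKM times gene length gave whole reads (100% of values under 200 reads, tolerance 0.02). FPKM is not a count, so log2(FPKM / median-ratio size factor + 0.5) of genes with a mean of at least 0.5 FPKM was tested with limma 3.58.1 (trend, 4 groups in 1 model, Benjamini-Hochberg over all genes), and a fold change on this scale understates low genes. Ratios were tested by exact two-sided permutation within strata, adjusted over 9 tests. The ratio tests of the responses are conservative where the ventricles differ. Contractile genes and gene lists were chosen with earlier results of these data known. From the lists, called genes were named (at most 5 per comparison by smallest adjusted p), and for likeness the 3 highest r. Alternatives covered scaling, pseudocount, filter, voom on recovered reads, gene length, replicate block, Y-linked genes (added after seeing the data) and left-out libraries. Same-numbered LV and RV libraries did not deviate together, so the numbers were not used as pairs. Motifs and miRNA seeds were found in RefSeq sequences of GRCr8, with promoter windows for 9 of the 10 genes (not Tnnc1).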

Additional observations from a re-analysis of the deposited data

Results flagged for a closer look

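The responses of Myh6 and Myh7 to VO differed between the ventricles by an interaction test in limma. The LV response minus the RV response was 0.893 on the log2 scale for Myh6 (adjusted p = 0.0319) and 1.18 for Myh7 (adjusted p = 0.0249). For both genes all 3 VO LV libraries were above all 3 sham LV libraries, and all 3 VO RV libraries were below all 3 sham RV libraries. The calls did not hold in all fits. Without sham RV replicate 1 and VO RV replicate 2, the libraries with the highest atrial marker sums of their groups, the differences were 0.87 and 1.09 and neither gene was called (limma adjusted p = 0.0757 and 0.0589), and with no filter on low values neither was called (limma adjusted p = 0.0967 and 0.0540). Y-linked genes summed to over 10 FPKM in 2 of 3 libraries of each sham group, 1 of VO RV and none of VO LV, and with a covariate for them Myh6 was not called (limma adjusted p = 0.0585) and Myh7 was (limma adjusted p = 0.0438). With the gene-length trend removed both were called (limma adjusted p = 0.0426 and 0.0309). With single libraries left out the call was lost in 8 of 12 fits for Myh6 and 6 of 12 for Myh7, and no fit turned the direction.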

How the results depend on the processing

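Scaling, pseudocount, filter, test, block, covariate and left-out libraries were varied one at a time. The differences of Myh6 and Myh7 kept their sign in every fit run, in all 5 comparisons, and a pseudocount of 1 or no size factor changed no count by over 1.5 times. Groups of 2 libraries against 3 and few arrangements bound the p-values of left-out fits, and the causes of the changes below were not tested. With quantile normalization, contractile genes called numbered 2 for sham LV/sham RV. There, ratios that crossed the threshold were Myh7/Myh6 for LV/RV (0.24, adjusted permutation p = 0.045). There, signs turned, with no call, for Acta1/Actc1 (0.35), Tnni1 (0.0018) and Tnnc1 (0.26) in the responses, Acta1 (-0.043), Tnni1 (-0.14) and Tnnc1 (-0.26) in sham LV/sham RV, Tnnc1 (0.22) in VO LV/sham LV and Tnni3 (-0.079), Tnnc1 (-0.043) and Tpm1 (-0.085) in VO RV/sham RV. With the replicate number as a block, genes called numbered 106 for sham LV/sham RV, 188 for VO LV/sham LV and 246 for the responses. There, ratios that crossed the threshold were Tnni1/Tnni3 for LV/RV (-0.35, adjusted permutation p = 0.125) and Acta1/Actc1 for LV/RV (0.36, adjusted permutation p = 0.125). With no filter on low values, genes called numbered 8 for sham LV/sham RV, 5 for VO LV/sham LV, 1 for VO RV/sham RV and 21 for the responses. There, contractile genes called numbered 0 for the responses. With voom on recovered reads, genes called numbered 339 for VO LV/sham LV. There, contractile genes called numbered 1 for sham LV/sham RV and 1 for VO LV/sham LV. With the gene-length trend removed, genes called numbered 5 for VO LV/sham LV. There, signs turned, with no call, for Tnni1 (-0.013) and Tnnc1 (-0.0085) in sham LV/sham RV, Tnnc1 (0.061) in VO LV/sham LV, Tnni3 (-0.0019), Tnnt2 (-0.0022) and Tnnc1 (-0.042) in VO RV/sham RV, Tpm1 (-0.0056) in VO LV/VO RV and Tnnc1 (0.10) in the responses. With a covariate for Y-linked genes (chosen after seeing the data), genes called numbered 0 for VO LV/sham LV and 176 for the responses. There, contractile genes called numbered 1 for the responses. There, signs turned, with no call, for Tnni1 (0.040) in VO RV/sham RV. With sham RV replicate 1 and VO RV replicate 2 left out, genes called numbered 9 for sham LV/sham RV, 2 for VO LV/sham LV, 2 for VO RV/sham RV, 2 for VO LV/VO RV and 2 for the responses. There, contractile genes called numbered 0 for the responses. There, ratios that crossed the threshold were Myh7/Myh6 for VO/sham (-0.22, adjusted permutation p = 0.09), Tnni1/Tnni3 for LV/RV (-0.31, adjusted permutation p = 0.113) and Acta1/Actc1 for LV/RV (0.32, adjusted permutation p = 0.09). There, signs turned, with no call, for Acta1/Actc1 (0.027) in the responses, Tnni1 (0.15) in VO RV/sham RV and Tnni3 (-0.19), Tnnt2 (-0.11), Tnnc1 (-0.055) and Tpm1 (-0.079) in VO LV/VO RV. With each library left out in turn, genes called ranged from 0 to 872 for sham LV/sham RV, 0 to 555 for VO LV/sham LV, 0 to 1 for VO RV/sham RV, 1 to 48 for VO LV/VO RV and 0 to 1003 for the responses, and contractile genes called from 0 to 3 for sham LV/sham RV, 0 to 1 for VO LV/sham LV and 0 to 4 for the responses. Log2 ratio differences then ranged from 0.15 to 0.22 for Myh7/Myh6 in LV/RV, -0.40 to -0.29 for Tnni1/Tnni3 in LV/RV, -0.018 to 0.075 for Acta1/Actc1 in VO/sham and -0.11 to 0.059 for Acta1/Actc1 in the responses. Log2 differences whose sign turned, none of them called, ranged from -0.015 to 0.16 for Tnni1 and -0.14 to 0.0099 for Tpm1 (sham LV/sham RV), -0.19 to 0.65 for Myh7b, -0.20 to 0.083 for Acta1, -0.17 to 0.035 for Actc1, -0.15 to 0.18 for Tnni1, -0.078 to 0.31 for Tnni3, -0.070 to 0.21 for Tnnt2, -0.073 to 0.15 for Tnnc1 and -0.076 to 0.11 for Tpm1 (VO RV/sham RV), -0.67 to 0.16 for Myh7b, -0.19 to 0.20 for Tnni3, -0.11 to 0.17 for Tnnt2, -0.055 to 0.17 for Tnnc1 and -0.079 to 0.079 for Tpm1 (VO LV/VO RV), -0.19 to 0.037 for Tnnc1 and -0.026 to 0.16 for Tpm1 (the responses). Counts of other sarcomere genes and regulators called were 0 and 0 between the sham ventricles and 0 and 0 for the responses with no filter and without both sham RV replicate 1 and VO RV replicate 2. With the block they were 0 and 2 between the sham ventricles, 1 and 4 for VO LV/sham LV and 2 and 6 for the responses, by voom 2 and 7 for VO LV/sham LV, with the gene-length trend removed 2 and 5 for the responses and with the Y-linked covariate 1 and 4 for the responses. The same-numbered LV and RV libraries did not deviate together (correlations of -0.22 to 0.12), so the replicate block is a check of a number only. Its ratio tests had 64 arrangements, with 0.0313 the smallest p before adjustment over 6 tests, so the ratio calls lost there say nothing about stability. With the block Myh7 and Myh6 were still called in the test of the responses.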
